A study of Mus musculus with 2 samples.

Results

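The guanylate-binding proteins (GBPs) and the immunity-related GTPases (IRGs) are 2 families of interferon-induced GTPases. The 10 genes described here, Gbp2, Gbp3, Gbp4, Gbp5, Gbp6, Gbp7, Iigp1, Igtp, Irgm1 and Irgm2, were taken by their gene symbols, out of 27998 genes measured. They occupied 11 rows of the gene list, because Gbp6 was listed in 2 rows, of which 1 held no count. The cells were leukocytes carrying CD45.1, the form of the pan-leukocyte protein CD45 that NOD mice have, sorted by flow cytometry from pancreatic islets. All donors were female NOD/ShiLtJ mice, an inbred strain that develops autoimmune diabetes spontaneously, without treatment. The study compared animals of 7 weeks with animals of 12 weeks. A Chromium 3' single-cell library was made for each age, so each age had 1 library. The number of mice behind each is not stated in the sources used here. With 1 library per age no difference could be tested against variation between mice. The 95% intervals in brackets cover the error of counting molecules only, and unique molecular identifiers (UMIs, 1 per captured transcript molecule) from the same cell are not independent of each other.

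Interferon gamma, made mainly by T cells and natural killer cells, binds a receptor built from Ifngr1 and Ifngr2 and leads to induction of the transcription factor IRF1. GBPs and IRGs are among the genes that this signal induces most strongly, and type I interferons induce many of them as well. GBPs are large GTPases of the dynamin superfamily that coat pathogen-containing vacuoles and free bacteria and feed into inflammasome activation. IRGs act on the same vacuoles. Iigp1 is an effector that loads onto the vacuole, whereas Igtp, Irgm1 and Irgm2 are regulators that sit on the cell's own membranes and hold effectors inactive. In islets infiltrated by T cells they are commonly read as a mark of interferon gamma exposure.

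In the mouse annotation (GENCODE M21, GRCm38), Gbp5, Gbp7, Gbp3 and Gbp2 lie side by side on the forward strand of chromosome 3. Their gene bodies are chr3:142493978-142522344, chr3:142530342-142550149, chr3:142560026-142573209 and chr3:142620602-142638008. Gbp4 (chr5:105115767-105139586) and Gbp6 (chr5:105270702-105293698) lie on the reverse strand of chromosome 5. Igtp (chr11:58199556-58207591) and Irgm2 (chr11:58199618-58222782) overlap on the forward strand of chromosome 11, and Irgm1 (chr11:48861968-48871683) is on its reverse strand. The locus of Iigp1 is given with its levels. Gbp4 overlapped Gbp8 and Gbp9, Gbp6 overlapped Gm43302, and Gbp7 overlapped Gm43802 on the same strand, so reads could have been divided between these genes or lost. The counts of Gbp4, Gbp6, Gbp7, Igtp and Irgm2 are therefore less certain than the others. The sources used here do not say how such reads were treated in counting.

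Promoter sequence is shown because the genes share interferon response elements there. RefSeq promoters (GRCm38.p6, the 250 bases before the start) matched 7 of the 10 genes, with no entry used for Gbp4, Gbp6 and Iigp1. Searches covered both strands for an interferon-stimulated response element, spelled GAAANNGAAA, and for a gamma-activated site, spelled TTCNNNGAA. Of 8 promoters of these genes, 7 held the first, 1 for each gene, against 2.98% of 32851 promoters of the same length. The other promoter of Gbp3 held neither motif. The second motif was found in 4 of the 8 (Gbp5, Gbp7, Igtp and Irgm2), against 7.02%, and these 4 held both, against 0.332%. Matches of the 2 motifs are in capitals in the windows and promoters below, all read 5' to 3' on the gene's strand. A match is a run of letters, not a measured binding site. Stretches of 30 bases around the response element of 4 genes, chr3:142620594-142620623, chr3:142559992-142560021, chr3:142496759-142496788 and chr11:48871428-48871457 (reverse strand), in that order, read:
Gbp2: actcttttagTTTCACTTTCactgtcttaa
Gbp3: gacacagTTTCAGTTTCTATTTCccagatc
Gbp5: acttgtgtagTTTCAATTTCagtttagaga
Irgm1: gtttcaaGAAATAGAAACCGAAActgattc
In Gbp3 and in Irgm1 there were 2 overlapping matches. The full 250 bases are given for 3 genes that hold both motifs, at chr3:142530086-142530335, chr11:58199306-58199555 and chr11:58214727-58214976:
Gbp7: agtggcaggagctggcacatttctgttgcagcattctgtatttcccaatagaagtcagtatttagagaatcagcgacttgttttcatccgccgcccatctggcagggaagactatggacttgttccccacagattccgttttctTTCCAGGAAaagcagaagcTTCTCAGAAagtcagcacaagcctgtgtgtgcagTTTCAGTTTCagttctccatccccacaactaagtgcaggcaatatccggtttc
Igtp: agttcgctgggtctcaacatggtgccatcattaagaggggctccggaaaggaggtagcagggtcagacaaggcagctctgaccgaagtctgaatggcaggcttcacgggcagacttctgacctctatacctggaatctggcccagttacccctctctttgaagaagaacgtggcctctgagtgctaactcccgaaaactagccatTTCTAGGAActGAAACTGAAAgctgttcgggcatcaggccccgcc
Irgm2: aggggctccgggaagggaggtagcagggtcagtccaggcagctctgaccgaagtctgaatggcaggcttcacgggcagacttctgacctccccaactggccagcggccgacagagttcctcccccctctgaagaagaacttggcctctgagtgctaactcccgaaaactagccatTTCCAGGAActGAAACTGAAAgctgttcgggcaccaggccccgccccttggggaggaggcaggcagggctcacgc
Igtp and Irgm2 carried the 2 motifs next to each other, and their promoters shared an identical run of 55 bases. The response element lay 34 bases before the start in Igtp, 53 in Gbp7, 59 in Gbp2 and 64 in Irgm2, while in Gbp5 it lay 165 bases before it. These starts are those of the RefSeq promoters, which can differ from the ends of the GENCODE gene bodies given above. The promoters of Gbp5, Irgm1 and Irgm2 and the response element of Gbp2 lie inside those gene bodies.

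The 7 week library held 1113 barcodes and 8701184 UMIs and the 12 week library 2812 barcodes and 19288252 UMIs. After filtering, 1099 and 2741 cells remained, with median totals of 5643 and 4934 UMIs, and 2 barcodes occurred in both libraries. Cells were classed by UMIs of a few genes. CD8 T cells had at least 2 of Cd8a and Cd8b1 and none of Cd4 (168 and 446 cells at 7 and 12 weeks), and CD4 T cells had at least 1 of Cd4 and none of the Cd8 genes (338 and 807). B cells had at least 2 of Cd79a (167 and 629), macrophages at least 10 of C1qa, C1qb and C1qc (11 and 34), dendritic cells at least 10 each of Cst3 and H2-Aa (73 and 191), and plasmacytoid dendritic cells at least 3 of Siglech (29 and 49). The other 28.5% and 21.3% of cells met no gate or both a B and a T cell gate. Levels are given as CPM, the UMIs of a gene summed over the cells of a class, divided by all UMIs of those cells and scaled to 1000000. The defining markers were present in each class, at 3291 and 3712 CPM for pan-T cell genes in CD8 T cells, 4175 and 4282 in CD4 T cells, and 5914 and 6747 for B cell genes in B cells. Macrophage genes had 31466 and 42011 CPM in macrophages and dendritic genes 17397 and 18027 CPM in dendritic cells. Plasmacytoid genes had 7703 and 11191 CPM in plasmacytoid dendritic cells. Except for the pan-T cell genes, these lists include the genes of the gates, so the gates themselves raise these sums. The dendritic list did not set its class apart, with 22709 and 21800 CPM in macrophages and 6842 and 8342 CPM in B cells. The myeloid classes were less clean. In dendritic cells the hormone gene Gcg of pancreatic alpha cells had 0.868 and 9997 CPM and plasma cell genes 4687 and 8658 CPM, with at least 50 UMIs of hormone genes in 0 and 4 cells and of Jchain in 4 and 14 cells. At least 2 UMIs of the Cd3 genes were found in 30 of 73 dendritic cells at 7 weeks and 33 of 191 at 12 weeks, in 6 of 11 and 6 of 34 macrophages, and in 10 of 29 and 8 of 49 plasmacytoid dendritic cells. The summed pan-T cell genes were correspondingly higher at 7 than at 12 weeks in these classes (479 against 124 CPM, 516 against 110 and 855 against 174). Of the macrophages, 10 of 11 and 30 of 34 also met the dendritic gate.

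The 10 genes were detected in every class, highest in macrophages and lowest in plasmacytoid dendritic cells. Macrophages had a summed level of 1133 CPM in the younger library and 1080 CPM in the older one. Dendritic cells had 509 and 631 CPM, CD4 T cells 487 and 626, CD8 T cells 426 and 513, B cells 230 and 378, and plasmacytoid dendritic cells 213 and 254. Classes next to each other in the order of levels are called separate where the 95% interval of their ratio excludes 1, and overlapping otherwise. At both ages the interval of the macrophages lay above all others and dendritic and CD4 T cells overlapped. That overlap depended on the cells included. Dendritic over CD4 T cells was 1.16 (1.03 to 1.29) and 1.08 (1.01 to 1.16) with cells that met exactly 1 gate. It was 0.759 (0.663 to 0.866) and 0.836 (0.779 to 0.898) without cells of at least 10 type I interferon UMIs. Deeper cells, such as the dendritic cells, meet that limit more easily. B cells and plasmacytoid dendritic cells overlapped at 7 weeks but not at 12 weeks. Relative to CD4 T cells the sum in macrophages was 2.32-fold at 7 weeks and 1.72-fold at 12 weeks. These macrophage values rest on few cells, because the 5 cells with the most held 80.0% and 50.4% of the member sum, and without them the ratio was 1.12 at both ages (levels 495 and 670 CPM). The same 5-cell omission took the plasmacytoid dendritic cells from 213 to 115 CPM at 7 weeks and their ratio to CD4 T cells from 0.437 to 0.260. The 5 cells were picked by the member sum and are a larger part of these small classes than of CD4 T cells. The omission by itself thus lowers both ratios. CD8 T cells were at 0.874 of the CD4 T cell level at 7 weeks (0.792 to 0.964) and at 0.819 at 12 weeks (0.771 to 0.870). At 7 weeks the ratio of CD8 to CD4 T cells was 1.15 when every cell was thinned to 2587 UMIs, with an interval that included 1 (0.980 to 1.34). It was 1.03 when every cell weighed the same.

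Free RNA in the suspension can add UMIs to cells that do not express a gene, and no class is known to lack these GTPases. Its part in these levels was not tested. The member sum stood at 43.0% and 58.0% of its macrophage level in CD4 T cells, 37.6% and 47.5% in CD8 T cells and 20.3% and 35.0% in B cells. Iigp1 in B cells was the lowest of these comparisons, at 3.46% and 9.34%.

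**Figure D1:**
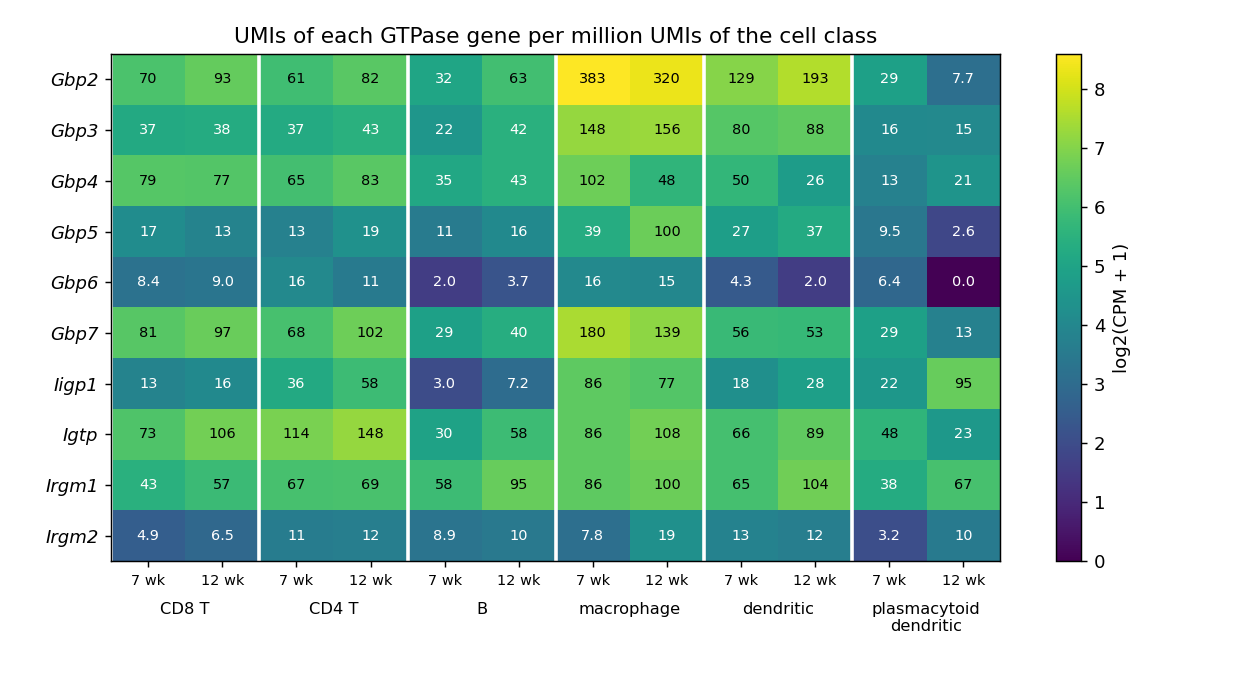
Level of each gene (rows) in each cell class and library (columns), coloured by log2(CPM + 1) and printed as CPM. Gbp2 in macrophages is the brightest cell, at 383 and 320 CPM, Igtp is brightest within CD4 T cells, at 114 and 148 CPM, and Gbp6 and Irgm2 stay below 20 CPM in every class.

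Among the GBPs, Gbp2 followed the antigen-presenting cells. This prenylated GBP, which is needed for attack on Toxoplasma vacuoles, had 383 and 320 CPM in macrophages at 7 and 12 weeks and 129 and 193 CPM in dendritic cells. CD8 T cells had 70.3 and 93.1 CPM, CD4 T cells 60.5 and 82.2, B cells 31.7 and 62.9, and plasmacytoid dendritic cells 28.6 and 7.69. At both ages macrophages, dendritic cells and T cells formed separate steps, and CD8 and CD4 T cells overlapped. Gbp3 had the same top: 148 and 156 CPM in macrophages and 79.8 and 88.0 CPM in dendritic cells, against 36.5 and 38.3 in CD8 T, 37.3 and 42.9 in CD4 T, 21.8 and 42.5 in B and 15.9 and 15.4 in plasmacytoid dendritic cells. Gbp5, which has been linked to inflammasome activation, had 39.1 and 99.7 CPM in macrophages and 26.9 and 37.3 in dendritic cells, and between 2.56 and 19.4 CPM in the other classes. Macrophages, dendritic cells and the lymphocytes were separate steps for Gbp5 at 12 weeks, whereas at 7 weeks neighbours overlapped.

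The remaining GBPs did not favour dendritic cells. Gbp7 was highest in macrophages (180 and 139 CPM), then in T cells, with 80.8 and 97.1 CPM in CD8 T and 67.7 and 102 CPM in CD4 T cells. Its dendritic level was 55.5 and 53.4 CPM, its B cell level 28.7 and 39.9, and its plasmacytoid dendritic level 28.6 and 12.8. Gbp4 had 78.7 and 76.6 CPM in CD8 T cells and 64.5 and 82.8 CPM in CD4 T cells. Macrophages had 102 and 47.8 CPM of Gbp4, dendritic cells 50.3 and 25.9, B cells 34.7 and 42.8, and plasmacytoid dendritic cells 12.7 and 20.5. At 12 weeks the T cell classes overlapped each other and were separate from macrophages, the next lower class, for Gbp4, while at 7 weeks neighbouring classes overlapped throughout. Gbp6 was scarce. It had 15.6 and 10.6 CPM in CD4 T cells, 15.6 and 14.5 in macrophages and 8.43 and 9.03 in CD8 T cells, at most 6.36 CPM in the others, and no UMI in plasmacytoid dendritic cells at 12 weeks. That count of 0 among 390145 UMIs allows a level of up to 7.69 CPM (3 counts).

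The IRGs spread differently. Igtp (Irgm3), a regulator, was the leading member in CD4 T cells, with 114 and 148 CPM, against 85.9 and 108 in macrophages, 73.1 and 106 in CD8 T, 66.0 and 88.8 in dendritic, 29.7 and 58.0 in B and 47.7 and 23.1 in plasmacytoid dendritic cells. At 12 weeks the ratio of each other class to CD4 T cells had an interval below 1. Irgm1, the regulator also known for its role in keeping lymphocytes and blood stem cells alive after interferon exposure, was the leading member in B cells, with 58.4 and 95.04 CPM. It had 67.3 and 69.1 CPM in CD4 T, 42.9 and 57.0 in CD8 T, 85.9 and 99.7 in macrophages, 65.1 and 104 in dendritic and 38.2 and 66.6 in plasmacytoid dendritic cells. Iigp1, the effector, was uneven across lymphocytes. Its gene lies at chr18:60376027-60392634 on the forward strand. It had 36.5 and 57.8 CPM in CD4 T cells, 13.4 and 15.9 in CD8 T cells and 2.97 and 7.18 in B cells. Macrophages had 85.9 and 76.8 CPM of Iigp1, dendritic cells 18.2 and 27.5, and plasmacytoid dendritic cells 22.3 and 94.8. Irgm2, the third regulator, stayed between 3.18 and 18.7 CPM with overlapping neighbours in the order at both ages.

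Counted against CD4 T cells with a 2-fold limit to be passed at both ages, all 10 genes had enough UMIs in each comparison. The UMIs were those of the class and of CD4 T cells together, so a gene scarce in a class could enter through CD4 T cells alone. Gbp6, for example, had 2 and 0 UMIs in plasmacytoid dendritic cells. In macrophages 3 members were higher (Gbp2, Gbp3 and Gbp5) and none lower, where 6.89% of all genes were higher and 16.7% lower. In dendritic cells Gbp2 and Gbp3 were higher and Gbp6 and Iigp1 lower (10.6% and 9.07% of all genes). B cells had 4 members lower (Gbp6, Gbp7, Iigp1 and Igtp) and none higher (11.2% and 5.13%). Plasmacytoid dendritic cells had 6 members lower (Gbp2, Gbp3, Gbp4, Gbp6, Gbp7 and Igtp) and none higher (9.64% and 8.92%). In CD8 T cells Iigp1 alone was lower and none was higher (3% and 1.34%). The shares of members past the limit in B cells, macrophages and plasmacytoid dendritic cells were thus above those of all genes in the named direction. The limit was set on the ratio alone, and some 7 week intervals included 1. These were Gbp5 in macrophages (0.927 to 7.88) and, in plasmacytoid dendritic cells, Gbp3 (0.135 to 1.03) and Gbp6 (0.0476 to 1.57). Irgm2 in CD8 T cells was past 2-fold lower at 7 weeks (0.438) but not at 12 weeks (0.551).

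The mix of the 10 genes also varied between classes. GBPs made up 76.6% and 71.9% of the member UMIs in macrophages, 68.5% and 63.8% in CD8 T cells and 68.1% and 63.3% in dendritic cells. Their share was 53.0% and 54.3% in CD4 T cells and 56.5% and 54.9% in B cells. Igtp alone gave 23.4% and 23.6% of the member UMIs of CD4 T cells, and Irgm1 25.4% and 25.2% of those of B cells. These shares hardly moved between the ages in the B and CD4 T classes. In plasmacytoid dendritic cells GBPs made up 47.8% and 23.2%, with Iigp1 at 10.4% and 37.4% of only 67 and 99 member UMIs. The higher GBP share at 7 weeks rested on cells that carried Cd3 genes. With all cells, Gbp2 to Gbp7 in order had 9, 5, 4, 3, 2 and 9 UMIs at 7 weeks. Without the 10 cells with Cd3 genes they had 2, 0, 1, 1, 2 and 1. At 12 weeks they had 3, 6, 8, 1, 0 and 5 UMIs, and 2, 6, 7, 0, 0 and 2 without 8 such cells. Iigp1 then had 6 and 20 UMIs at 7 and 12 weeks. All shares in this mix are of UMIs at 3' ends, so a gene whose 3' end is poorly captured or shared with a neighbour counts for less.

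**Figure D2:**
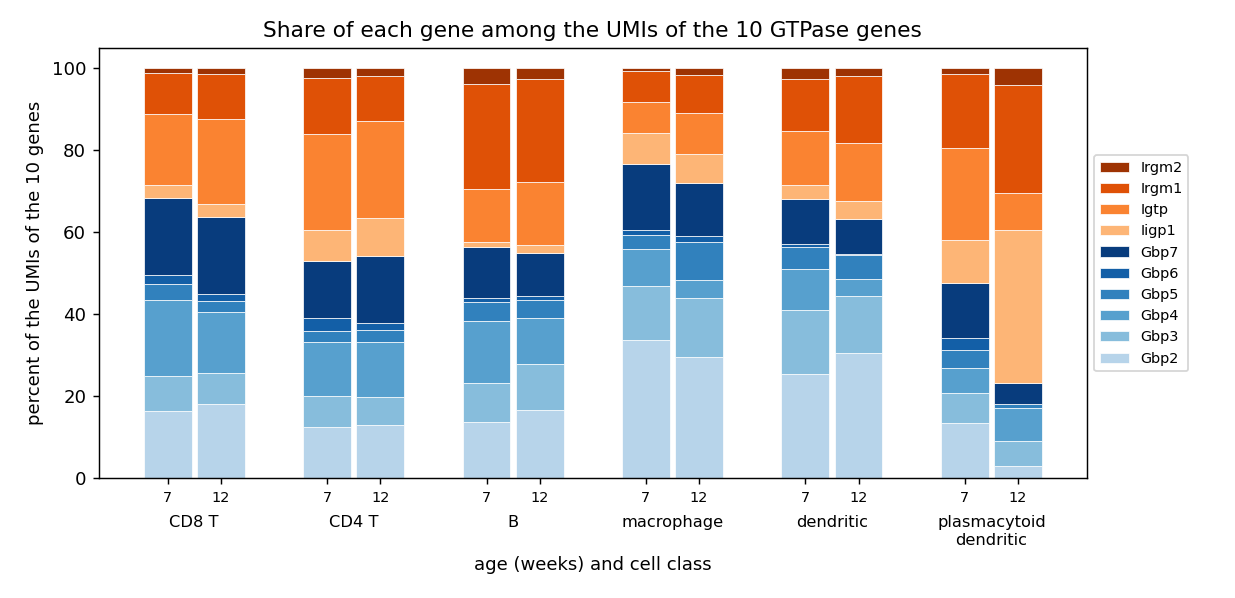
Percent of the UMIs of the 10 genes (bar height, 0 to 100) contributed by each gene, per cell class and age in weeks, with GBPs in blue and IRGs in orange. The Irgm1 segment of B cells (25.4% and 25.2%) and the Igtp segment of CD4 T cells (23.4% and 23.6%) keep their size between the ages, and Iigp1 takes 37.4% in 12 week plasmacytoid dendritic cells.

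Between the ages, the 10 genes together were higher at 12 weeks in the lymphocyte classes and in dendritic cells. B cells differed most, from 230 to 378 CPM, a ratio of 1.65 (1.43 to 1.90). The ratio was 1.29 (1.20 to 1.38) in CD4 T cells, 1.24 (1.13 to 1.37) in dendritic cells and 1.20 (1.10 to 1.32) in CD8 T cells. When every cell was thinned to the same depth, the CD8 ratio was 1.09 and its interval included 1 (0.941 to 1.26). Intervals in macrophages (0.953, 0.791 to 1.15) and plasmacytoid dendritic cells (1.19, 0.865 to 1.65) also included 1. The median log2 ratio of the members with at least 20 UMIs was 0.70 in B cells, 0.37 in CD4 T cells, 0.26 in CD8 T cells and 0.43 in dendritic cells. Over all genes tested the same medians were 0.07, 0.00 (-0.000373), 0.02 and 0.02.

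In B cells 5 of 9 members passed 1.5-fold upward (Gbp2, Gbp3, Iigp1, Igtp and Irgm1) and none downward, where 12.6% of all genes passed upward and 11.4% downward. Gbp2 went from 31.7 to 62.9 CPM (1.98, 1.37 to 2.97), and its share of B cells with a UMI after thinning was 5.99% and 12.7%. Igtp differed by 1.95-fold (1.33 to 2.97), Gbp3 by 1.95-fold (1.24 to 3.21) and Irgm1 by 1.63-fold (1.23 to 2.18). Iigp1 rested on 3 and 25 UMIs and its interval included 1 (0.737 to 12.5). At least 2 Cd3 UMIs were present in 18 and 33 B cells, and without cells carrying markers of another type the ratio of the sum was 1.55 (1.33 to 1.80). Irgm1 then no longer passed 1.5-fold (1.44, 1.08 to 1.96), while Gbp2, Gbp3, Igtp and Iigp1 did, Iigp1 from 1 and 21 UMIs. Fewer members passed in T cells. In CD4 T cells 3 of 10 passed upward (Gbp5, Gbp7 and Iigp1) and none downward, against 7.34% and 9.9% of all genes. Iigp1 was at 36.5 and 57.8 CPM (1.59, 1.25 to 2.03), Gbp7 at 67.7 and 102 CPM (1.51, 1.26 to 1.81), and Igtp, with the most UMIs, at 114 and 148 CPM (interval of the ratio 1.13 to 1.49). Irgm1 was nearly level in CD4 T cells, at 1.03. In CD8 T cells none of 10 passed in either direction, against 8.69% upward and 9.56% downward, with ratios of 1.45 for Igtp (1.16 to 1.83) and 1.32 for Gbp2 (1.05 to 1.68). Irgm1 and Irgm2 were at 1.33 there with intervals that included 1.

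The dendritic class had members on both sides. Of 9 members, Iigp1 and Irgm1 passed 1.5-fold upward and Gbp4 downward, against 12.2% and 12.4% of all genes. Irgm1 was at 65.1 and 104 CPM (1.59, 1.23 to 2.09) and Gbp2 at 129 and 193 CPM (1.49, 1.24 to 1.80). Gbp4 went the other way, from 50.3 to 25.9 CPM (0.515, 0.357 to 0.746). T cell genes also differed between the ages in this class, as given above. With all cells left out that carried Cd3 genes or markers of B, plasma, endocrine or other cells (32 of 73 and 53 of 191), Gbp4 was at 50.8 and 28.1 CPM (0.553, 0.340 to 0.915) and Gbp2 at 125 and 234 CPM (1.87, 1.44 to 2.44). Iigp1 then had 4 and 42 UMIs, a ratio of 3.39 (1.23 to 13.0). Irgm1 no longer passed 1.5-fold (1.44, 1.01 to 2.08). With cells of at least 10 type I interferon UMIs left out instead, the Gbp4 ratio was 0.795 (23.5 and 18.7 CPM), its interval included 1 (0.456 to 1.42) and it no longer passed 1.5-fold.

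In macrophages 1 of 8 members passed upward (Gbp5) and 1 downward (Gbp4), near the 21.8% and 18.2% of all genes in these few cells. Gbp5 had 5 UMIs at 7 weeks and 48 at 12 weeks, a ratio of 2.55 (1.02 to 8.21). In plasmacytoid dendritic cells 3 members had enough UMIs. Iigp1 and Irgm1 were above 1.5-fold and Igtp below, against 17.3% and 14.4% of all genes. Iigp1 went from 7 UMIs in 3 of 29 cells to 37 UMIs in 17 of 49 cells, or 22.3 to 94.8 CPM (4.26, 1.87 to 11.3). Without the 10 and 8 cells that carried Cd3 genes the Iigp1 levels were 36.1 and 63.4 CPM and the interval of the ratio included 1 (1.76, 0.680 to 5.34). The part of T cell RNA in these values was not tested further.

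**Figure D3:**
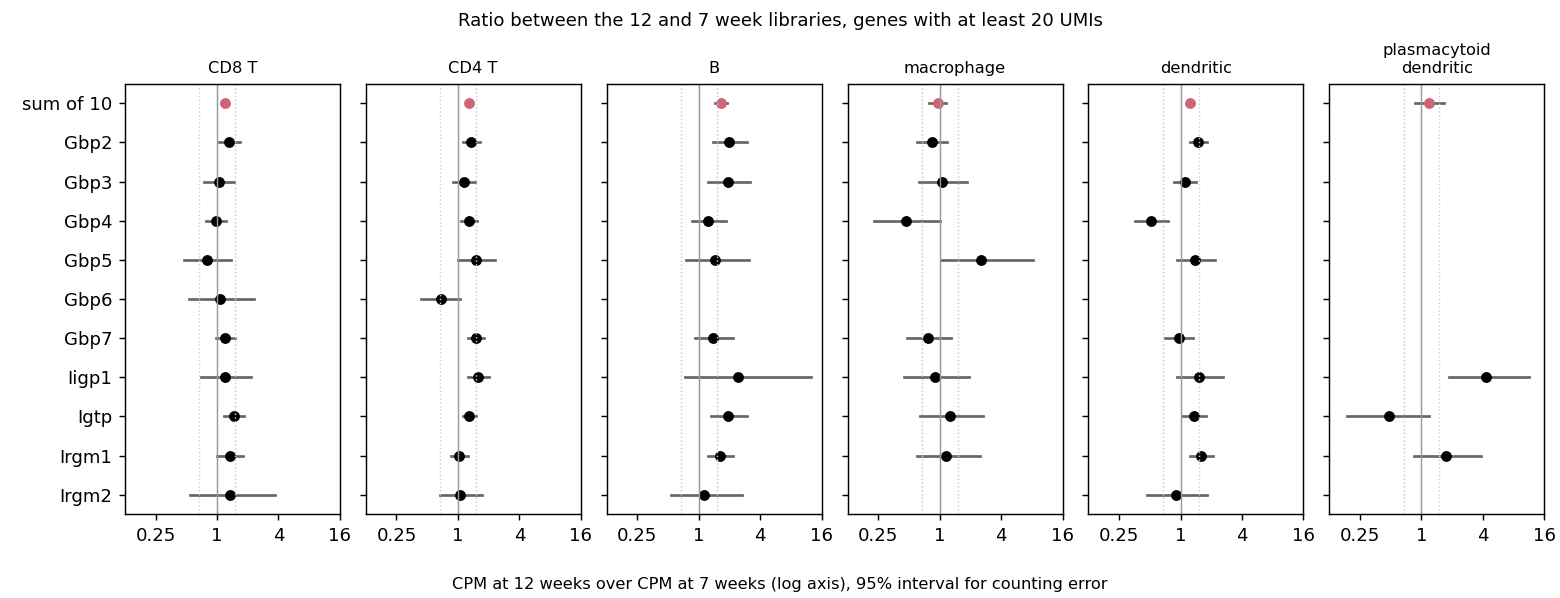
Ratio of CPM at 12 weeks over CPM at 7 weeks (log axis) for the sum of the 10 genes (red) and each gene with at least 20 UMIs (black), 1 panel per cell class, with 95% intervals for counting error and dotted lines at 1.5-fold. All 9 points of B cells lie right of 1, and Gbp4 in dendritic cells lies left of it at 0.515.

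Within CD8 T cells the 10 genes were higher in cells low in Ccl5, a chemokine gene of effector and memory T cells, than in cells rich in it. This division and its limit of at most 2 Ccl5 UMIs were chosen after values were seen. It gave 67 Ccl5-low and 101 Ccl5-high cells at 7 weeks and 199 and 247 at 12 weeks, with median totals of 5249 and 7184 UMIs and of 4963 and 6058 UMIs. Ccl5-low cells carried more Lef1 and Ccr7, genes of naive and central memory T cells (5.72-fold and 5.12-fold at 7 weeks and 8.24-fold and 8.76-fold at 12 weeks). They carried less Nkg7, a cytotoxic granule gene, at 0.370 and 0.310 of the Ccl5-high level. The member sum was 582 CPM in Ccl5-low and 359 CPM in Ccl5-high cells at 7 weeks (1.62, 1.37 to 1.91), and 817 and 364 CPM at 12 weeks (2.24, 2.03 to 2.48). With only cells at 0 Ccl5 UMIs as low, the ratio was 1.17 (0.949 to 1.44) and 1.69 (1.52 to 1.88).

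The difference was greater for the IRGs (2.18-fold and 3.64-fold) than for the GBPs (1.41-fold and 1.72-fold). Gbp2 was at 132 and 44.1 CPM in Ccl5-low and Ccl5-high cells at 7 weeks and at 182 and 49.6 CPM at 12 weeks (2.98-fold and 3.66-fold). Igtp was at 115 and 55.2 CPM and at 210 and 55.2 CPM (2.09-fold and 3.81-fold). These 2 of the 7 members with enough UMIs were past 2-fold higher at both ages and none was lower, against 1.1% and 7.07% of all genes. Iigp1 lay mostly in the Ccl5-low cells, with 14 against 5 UMIs at 7 weeks (6.56-fold, 2.23 to 23.3) and 46 against 5 at 12 weeks (18.8-fold, 7.49 to 60.6). Gbp6 (11.7-fold, 2.50 to 110, and 4.54-fold, 1.97 to 11.3) also stood higher there. Gbp7 was about level (1.07 and 1.22), and Gbp3 was on the other side, at 25.8 against 41.1 CPM at 7 weeks (0.628, 0.291 to 1.24) and 20.8 against 46.9 CPM at 12 weeks (0.445, 0.267 to 0.710). Transcripts of Ifng itself were lower in Ccl5-low cells, at 84.6 against 213 CPM and 37.9 against 218 CPM. The summed level of 19 other interferon gamma targets, such as immunoproteasome and peptide transporter genes, was slightly lower in Ccl5-low cells (0.914 and 0.855). Other interferon readouts went with the members at 12 weeks. Irf1 was then at 1.65 (1.37 to 1.996) and the type I interferon list at 1.28 (1.11 to 1.48). At 7 weeks Irf1 was at 1.20 (0.907 to 1.58) and the type I list at 1.06 (0.881 to 1.27).

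Between the ages, the member sum of Ccl5-low cells differed by 1.40-fold (1.22 to 1.62) and that of Ccl5-high cells by 1.01-fold (0.894 to 1.15). Their IRGs differed by 1.67-fold (1.33 to 2.13) and 0.9999-fold (0.784 to 1.28). The Ccl5-low cells also differed in other genes between the ages. Lef1 was at 298 and 516 CPM in them, and Ikzf2, a transcription factor gene of regulatory and some effector T cells, at 214 and 49.2 CPM. The part of this in the age ratio was not tested, and the difference between the age ratios could not be tested with 1 library per age. Igtp was at 115 and 210 CPM in the Ccl5-low cells and at 55.2 CPM at both ages in the Ccl5-high cells.

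CD4 T cells with a Foxp3 UMI, the transcription factor of regulatory T cells, had more of the 10 genes than the other CD4 T cells. There were 44 of 338 such cells at 7 weeks and 57 of 807 at 12 weeks, and they also had more Il2ra (8.60-fold and 8.78-fold) and Ikzf2 (4.87-fold and 5.78-fold). They were deeper, with median totals of 6846 and 6126 UMIs against 5599 and 4593. The member sum was 736 against 442 CPM at 7 weeks (1.67, 1.45 to 1.91) and 1019 against 591 CPM at 12 weeks (1.72, 1.55 to 1.91). With every cell thinned the 7 week ratio was 1.28 and its interval included 1 (0.978 to 1.65). Gbp3 led, at 101 against 25.6 CPM (3.93, 2.54 to 6.05) and 103 against 37.4 CPM (2.74, 1.90 to 3.88). Gbp3 and Gbp5 passed 2-fold at both ages out of 10 members and none was lower, against 2.04% and 2.12% of all genes. Gbp5 at 7 weeks rested on 9 against 23 UMIs, and its interval included 1 (2.13, 0.868 to 4.78). Gbp7 came next (2.56-fold and 1.99-fold), and Igtp was at 1.71 (1.29 to 2.26) and 1.87 (1.51 to 2.31). Irgm1 changed side, at 0.573 (0.320 to 0.962) at 7 weeks and 1.47 (1.02 to 2.05) at 12 weeks. Ifng was lower in the Foxp3 cells, at 0.222 and 0.153 of the level in the others. The summed other interferon gamma targets were higher in them (1.35, 1.26 to 1.45, and 1.36, 1.28 to 1.45). The type I interferon list was lower at 7 weeks (0.670, 0.537 to 0.830), while its 12 week interval included 1 (0.904, 0.729 to 1.11). The age ratio of the member sum in the Foxp3 cells, 1.38 (1.19 to 1.62), was close to the 1.34 (1.24 to 1.44) of the other CD4 T cells. The Foxp3 cells also differed in other genes between the ages, with Ccl5 at 1248 and 358 CPM and Nkg7 at 873 and 551 CPM. The part of this in their age ratio was not tested.

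**Figure D4:**
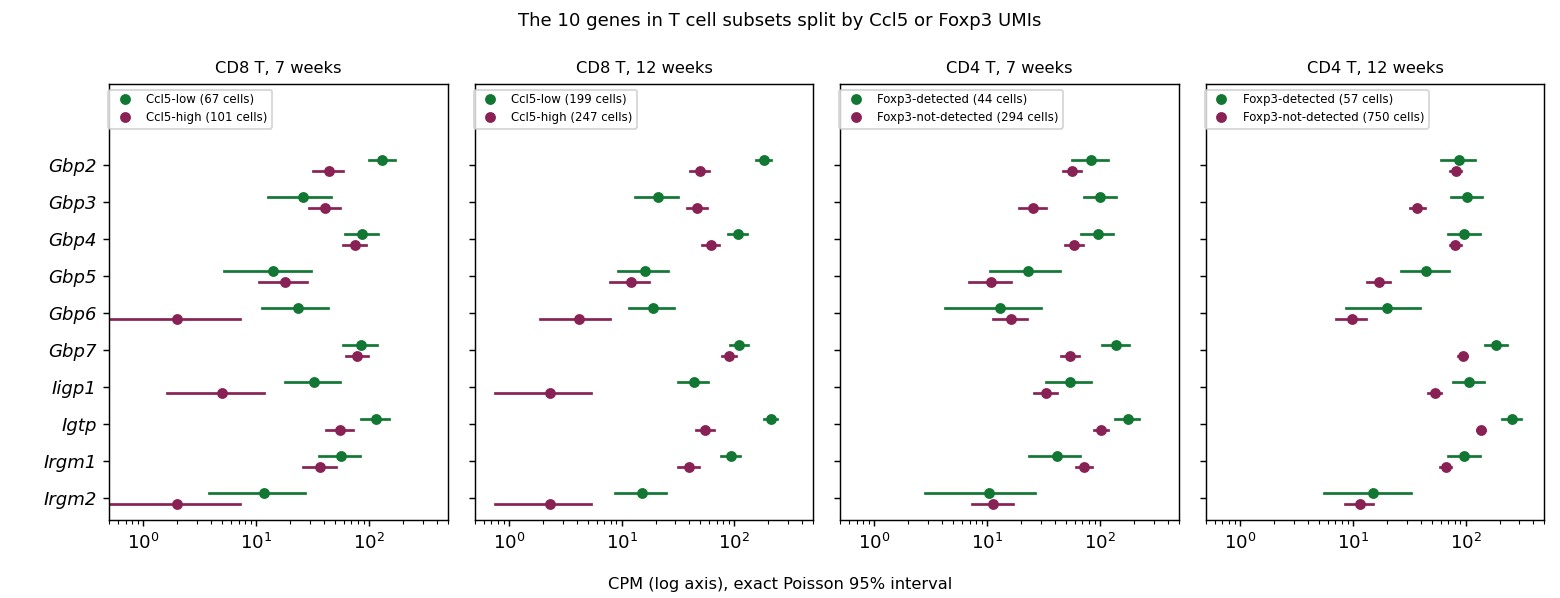
CPM of each gene (log axis, exact Poisson 95% intervals) in Ccl5-low and Ccl5-high CD8 T cells and in Foxp3-detected and Foxp3-not-detected CD4 T cells at each age. Among the genes separated at both ages are Gbp2, Iigp1 and Igtp in CD8 T cells and Gbp3 and Gbp7 in CD4 T cells.

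Per cell, the genes were sparse and shared. After thinning to 2587 UMIs, at least 1 of the 10 genes was seen in 62.5% and 61.2% of CD8 T cells, 57.4% and 65.7% of CD4 T cells and 36.5% and 51.8% of B cells. At least 3 were seen in 13.7% and 16.6% of CD8 T cells (8.88 to 19.8 and 13.3 to 20.4, exact binomial), in 13.3% and 20.2% of CD4 T cells (9.88 to 17.4 and 17.5 to 23.1) and in 2.99% and 7.63% of B cells (0.979 to 6.85 and 5.68 to 9.99). The unthinned shares with at least 3 were 39.3% and 39.9%, 32.2% and 36.9%, and 16.2% and 18.1%, at median totals of 6166 and 5355, 5662 and 4645, and 5305 and 4614 UMIs. Macrophages had 6 of 11 and 12 of 34 thinned cells with at least 3 genes (54.5% and 35.3%), and at 7 weeks 16.7% without the 5 richest cells. Dendritic cells had 9.59% and 16.2%, and 1.75% at 7 weeks once the cells with at least 10 type I interferon UMIs were left out. In plasmacytoid dendritic cells 2 of 29 and 2 of 49 cells had at least 3 genes (6.90% and 4.08%) and none did without the 5 richest cells. The 5 richest cells were picked by UMIs of these same genes, so a lower share without them follows from the choice. Unthinned, single cells with all 10 genes occurred in the CD4 T class at both ages and in CD8 T cells and macrophages at 12 weeks.

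**Figure D5:**
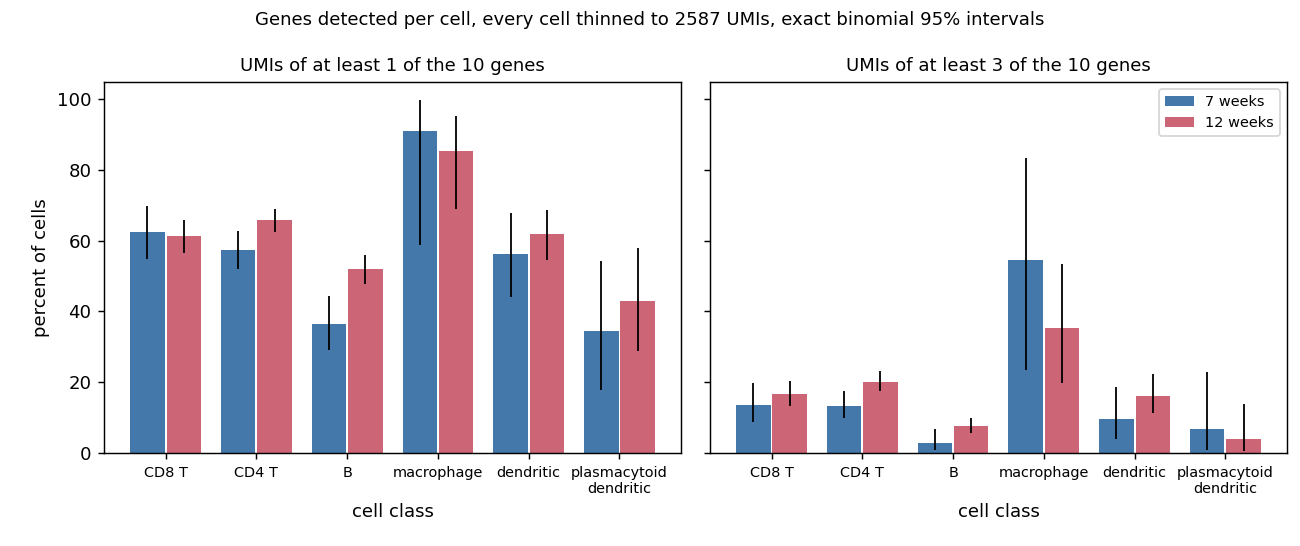
Percent of cells (bars from 0) with UMIs of at least 1 (left) and at least 3 (right) of the 10 genes after every cell was thinned to 2587 UMIs, with exact binomial 95% intervals. B cells go from 36.5% to 51.8% for at least 1 gene between the ages, while the CD8 T bars (62.5% and 61.2%) stay level and macrophage intervals are wide.

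In lymphocytes and dendritic cells, members met in the same cell more often than the product of their separate shares gives. Summed over all pairs of members in thinned cells, observed co-detections over that product were 1.65 and 1.68 in CD8 T cells (168 and 497 co-detections), 1.70 and 1.62 in CD4 T cells (285 and 1112), 1.72 and 1.70 in B cells (34 and 323) and 1.71 and 1.85 in dendritic cells. Plasmacytoid dendritic cells were also above the product, at 2.76 and 2.11, from only 10 and 15 co-detections. Macrophages gave 1.12 and 1.503, and at 7 weeks 0.943 for GBPs with IRGs and 0.786 for IRGs with IRGs, in 11 cells. IRGs with IRGs gave 2.01 and 2.01 in CD8 T cells, and GBPs with IRGs 1.72 and 1.56, so pairs across the families were also above the product. As a comparison, the members with 7 genes of ATG8 conjugation, the membrane-tagging machinery that IRGs and GBPs need to find their targets, gave 0.999 and 0.933 in CD8 T cells, 1.002 and 1.04 in CD4 T cells and 1.05 and 0.937 in B cells. With the type I interferon list the ratio was 2.01 and 1.56 in CD8 T, 1.82 and 1.44 in CD4 T and 2.36 and 1.67 in B cells. With the other interferon gamma targets it lay between 1.13 and 1.23 in these classes. For a pair the ratio cannot exceed 1 over the share of the more often detected gene. The lists differ in detection, with products of 188 for the type I list and 639 for the other targets in 7 week CD8 T cells. Their ratios therefore cannot be ranked against each other. Differences between subsets and states within a class enter this ratio, and their part was not tested.

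Few lymphocytes were rich in type I interferon transcripts, and these were also rich in the 10 genes. In CD4 T cells 19 and 16 cells had at least 10 UMIs of the 20-gene type I list, and their member sum was 1198 and 1204 CPM against 428 and 609 CPM in the rest. In dendritic cells 16 of 73 and 32 of 191 cells passed this limit and had 1141 and 1184 CPM against 325 and 510 CPM. CD8 T cells showed the same order, with 816 and 999 CPM in 14 and 14 cells against 383 and 488 CPM. Gbp4 and Gbp7 in 7 week CD4 T cells (172 against 55.6 CPM and 182 against 58.2 CPM) were among the members that followed this order, while Gbp5 did not (10.4 against 13.0 CPM, from 2 and 30 UMIs). Leaving these cells out took the 7 week dendritic level from 509 to 325 CPM and the dendritic age ratio from 1.24 to 1.57. The age ratio without them was 1.42 in CD4 T cells, 1.27 in CD8 T cells and 1.63 in B cells. The limit of 10 UMIs was applied to unthinned cells, so deeper cells meet it more easily. Median totals were 14374 and 12757 UMIs in dendritic cells and 5662 and 4645 UMIs in CD4 T cells.

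The rest of the pathway was read from lists of genes. Of the ligand, Ifng, CD8 T cells had 174 and 159 CPM and CD4 T cells 195 and 107 CPM, so the ligand was lower at 12 weeks in CD4 T cells (0.548, 0.483 to 0.622) while the GTPases were higher. Among receptors, Ifngr1 was at 108 and 173 CPM in CD8 T cells (1.61-fold) and 120 and 143 CPM in CD4 T cells. Ifngr2, the chain that limits the response of T cells, was at 7.03 and 9.96 CPM in CD8 T and 9.62 and 17.3 CPM in CD4 T cells, against 46.5 and 65.2 CPM in B cells and 164 and 179 CPM in macrophages. Of 10 receptor and signalling genes, 1 passed 1.5-fold upward in CD8 T cells and 1 in CD4 T cells and none downward, and 1 passed downward in B cells. These shares are near those of all genes (8.69% and 7.34% upward, 11.4% downward in B cells). Irf1 was at 150 and 149 CPM in CD4 T cells.

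Of the other interferon gamma targets, none of 14 passed 1.5-fold in CD8 T cells and none of 15 in CD4 T cells. In B cells 2 of 16 were higher and 1 lower. Of all genes, 8.69% were higher and 9.56% lower in CD8 T cells, 7.34% and 9.9% in CD4 T cells, and 12.6% and 11.4% in B cells. The immunoproteasome gene Psmb8 had 697 and 820 CPM in CD4 T cells. Cxcl9, a chemokine gene that interferon gamma induces in myeloid cells, had 2554 and 2861 CPM in macrophages and 693 and 535 CPM in dendritic cells. The type I interferon list went downward with age in T cells, with 9 of 15 genes lower and 1 higher in CD8 T cells (9.56% and 8.69% of all genes) and 6 of 16 lower and 1 higher in CD4 T cells (9.9% and 7.34%). Isg15, a ubiquitin-like modifier, was at 90.0 and 52.6 CPM in CD8 T and 109 and 69.5 CPM in CD4 T cells. In B cells none of 10 type I genes was lower and 3 were higher (11.4% and 12.6% of all genes). Other members of the GBP and IRG families included Ifi47, at 145 and 191 CPM in CD4 T and 157 and 164 CPM in CD8 T cells, and Gbp2b, at 156 and 185 CPM in macrophages and 5.61 and 17.7 CPM in CD4 T cells. In CD4 T cells 3 of 8 of these relatives were higher at 12 weeks and none lower, in CD8 T cells 1 of 6 higher, and in B cells 1 of 5 lower, where 7.34% and 8.69% of all genes were higher in the T cell classes and 11.4% lower in B cells. Of 7 ATG8 conjugation genes none passed in CD4 T or B cells and 1 was lower in CD8 T cells (9.56% of all genes). Of 5 inflammasome genes none passed in these 3 classes.

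The genes whose pattern was most like the 10 were found by correlation, given here as a description. Across thinned CD8 T cells, the summed members went most closely with Samhd1 (Pearson r of 0.339 and 0.341 over 168 and 446 cells), Gbp8 (0.321 and 0.340), Ifi203 (0.410 and 0.316) and Zbp1 (0.325 and 0.286). In CD4 T cells these were Ifi47 (0.343 and 0.377), Zbp1 (0.293 and 0.328), Samhd1 (0.254 and 0.316) and Ly6a (0.252 and 0.341). In B cells they were Ifi203 (0.252 and 0.243), Isg15 (0.218 and 0.219), Bst2 (0.207 and 0.203) and Zbp1 (0.196 and 0.267). Zbp1 was in all 3 sets. The values are low and share the library and the thinned depth of the cells, and Gbp8 overlaps Gbp4 on the genome. Across the 12 points of class and library, Asl had the profile most like the mean of the members (r of 0.968), followed by Gnpda1 (0.919), Lmna (0.918), Rab20 (0.915), Srgap2 (0.911), Pisd (0.910), Daglb (0.899), Luzp1 (0.898), Rap2b (0.896) and Mkl2 (0.893), out of 9098 candidates. That profile is led by the 2 macrophage points, and each class contributes 2 points from the same gates.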

How the data were processed

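The authors deposited UMI count matrices, 1 per library, made from Chromium 3' reads. Per the submitters' processing notes the tool was Cell Ranger 1.3.1 and the genome build mm10. Barcodes with fewer than 200 genes or over 10% mitochondrial UMIs were left out (4 and 8), as were the top-scored doublets (10 and 63, Scrublet in scanpy 1.11.5 at 0.8% per 1000 barcodes, whose automatic threshold called 2 and 22). A cell was placed as macrophage first, then plasmacytoid dendritic, then dendritic, then lymphocyte, and cells meeting a B and a T gate were left out. UMI counts were summed per class and library with Python 3.11.15, numpy 2.4.6, scipy 1.17.1 and pandas 2.3.3. Levels carry exact Poisson intervals, ratios exact conditional binomial intervals and shares Clopper-Pearson intervals, all at 95% and for counting error only. No test was run, since each age had 1 library. Thinning drew 2587 UMIs per cell without replacement, the smallest total kept, so no cell was left out. A gene counted as past the limit at 1.5-fold between ages and 2-fold between classes or subsets, given at least 20 UMIs over the groups compared together. The text names all 10 members, the genes most like them in profile (10, over class and library, of log2(CPM + 10), at least 100 UMIs) or per cell (5 per lymphocyte class, detected in at least 5% of cells), and pathway genes from lists, of which those named were picked by role. Members and lists were chosen with earlier results of these data known. The Ccl5 and Foxp3 divisions and the omission of cells that carry markers of another type were added after the data were seen. Gbp1, Gbp11 and Gm12250 were not among the symbols of the gene list. The ratio and counting code was tested on simulated counts. Some genes of the lists and likeness sets are not reported here.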

Additional observations from a re-analysis of the deposited data

Results flagged for a closer look

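Gbp4 differed between the ages in opposite directions in 2 cell classes. Its CD4 T cell level was 64.5 CPM in the younger and 82.8 CPM in the older library (1.28-fold, 1.07 to 1.55), from 161 and 398 UMIs. In dendritic cells it was 50.3 and 25.9 CPM (0.515, 0.357 to 0.746), from 58 and 66 UMIs. The difference between these ratios was not tested, because each age had 1 library. Pan-T cell genes summed to 479 CPM in dendritic cells at 7 weeks and 124 CPM at 12 weeks. With cells carrying markers of another type left out the dendritic ratio was 0.553 (0.340 to 0.915). With cells of at least 10 type I interferon UMIs left out instead it was 0.795 (0.456 to 1.42), and these cells held 143 and 58.8 CPM of Gbp4 against 23.5 and 18.7 CPM in the other dendritic cells.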

How the results depend on the processing

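No paired analysis was possible because each age had 1 library, and the labels give no pairing. Intervals show counting error only, so variation between mice is in none of them. Macrophages (11 and 34 cells) and plasmacytoid dendritic cells (29 and 49 cells) were few. The age ratio of the summed members stayed above 1 in CD8 T, CD4 T, B and dendritic cells under every alternative run. The values compared were levels, class and age ratios, subset ratios, co-detection and counts of members under all alternatives. Of these, 338 stayed within the counting interval of the main value, or within 1.5 times where it had no interval. A further 120 fell outside, and 2 reversed. Many of the 120 differed by far less than 1.5 times, such as the 12 week CD8 T level without the 5 richest cells (488 against 513 CPM). A reversal is counted only where the interval of the ratio in the main analysis excluded 1, whatever the interval under the alternative. Others crossed 1 from an interval that included it, among them dendritic over CD4 T cells and the macrophage age ratio. The causes were not tested beyond what each setting leaves out. Values below are for the member sum, with 7 weeks before 12 weeks.

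The reversals concern CD8 over CD4 T cells at 7 weeks, which was 1.15 with every cell thinned and 1.03 as a mean over cells. The thinned interval included 1 (0.980 to 1.34), and the mean over cells has no interval of its own. An order opposite to the main one is thus not shown beyond counting error. Thinning every cell gave age ratios of 1.44 in CD4 T, 1.09 in CD8 T and 1.57 in dendritic cells. It gave 0.531 for B over CD4 T cells at 12 weeks, 0.877 for dendritic over CD4 T cells at 7 weeks and 1.28 for the Foxp3 division at 7 weeks. Thinned levels were 589 and 640 CPM in CD8 T, 738 CPM in CD4 T at 12 weeks, 450.1 and 706 CPM in dendritic cells, 1370 and 1194 CPM in macrophages and 279.9 CPM in plasmacytoid dendritic cells at 7 weeks. As a mean over cells the levels were 550.4 and 618 CPM in CD8 T, 536 and 712 CPM in CD4 T and 683 CPM in dendritic cells at 12 weeks, with 0.548 for B over CD4 T cells and 1.98 for the Ccl5 division at 12 weeks.

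Without the 5 cells richest in members, the age ratios were 1.34 in CD8 T, 1.37 in dendritic cells and 1.35 in macrophages. Levels were then 363 and 488 CPM in CD8 T, 441 and 601 CPM in CD4 T, 356 CPM in B cells at 12 weeks, 401 and 549.96 CPM in dendritic cells, 495 and 669.99 CPM in macrophages and 115 and 175 CPM in plasmacytoid dendritic cells. The ratios to CD4 T cells were 0.910 and 0.915 for dendritic cells, 1.12 and 1.12 for macrophages and 0.260 and 0.291 for plasmacytoid dendritic cells, and the Ccl5 division gave 2.03 at 12 weeks. The share of cells with at least 3 members was 16.7% in macrophages at 7 weeks and 0 in plasmacytoid dendritic cells at both ages. The 5 cells were picked by the member sum and are a larger part of a class with fewer cells. Every class had fewer cells at 7 weeks. The omission by itself therefore shifts ratios between ages and between classes of unlike size.

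Without cells of at least 10 type I interferon UMIs, the age ratios were 1.42 in CD4 T and 1.57 in dendritic cells. Levels were 383 and 488 CPM in CD8 T, 428 CPM in CD4 T at 7 weeks, 325 and 509.6 CPM in dendritic cells and 879 and 769 CPM in macrophages. Ratios to CD4 T cells were 0.759 and 0.836 for dendritic cells and 1.26 for macrophages at 12 weeks, the Foxp3 division gave 1.99 at 7 weeks, and 1.75% of dendritic cells at 7 weeks had at least 3 members. Without cells carrying markers of another type, dendritic cells had an age ratio of 1.39, a 12 week level of 698 CPM and a 12 week ratio to CD4 T cells of 1.12. Macrophages then had 1423 and 1347 CPM, or 2.92 and 2.16 over CD4 T cells. With cells that meet exactly 1 gate, dendritic levels were 563 and 676 CPM, or 1.16 and 1.08 over CD4 T cells, and no macrophage at 7 weeks had at least 3 members (0%, from 1 cell).

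With totals that leave out ribosomal protein, mitochondrial and haemoglobin genes, levels were 673 and 813 CPM in CD8 T, 752 and 981 CPM in CD4 T, 387 and 619 CPM in B, 1484 and 1359 CPM in macrophages, 709.6 and 845 CPM in dendritic and 296 and 335 CPM in plasmacytoid dendritic cells. Dendritic cells were at 0.943 and 0.861 of CD4 T cells, macrophages at 1.39 at 12 weeks, and the Ccl5 division gave 2.77 at 12 weeks. A limit of 0 Ccl5 UMIs gave 1.17 and 1.69, and a limit of 5 gave 2.03 at 12 weeks. Without thinning, pairs over the product of shares were 1.36 and 1.36 in CD8 T and 1.42 in CD4 T cells at 12 weeks. The unthinned shares of cells with at least 3 members were 39.3% and 39.9% in CD8 T, 32.2% and 36.9% in CD4 T, 16.2% and 18.1% in B, 53.4% and 52.9% in dendritic cells, and at 12 weeks 67.6% in macrophages and 18.4% in plasmacytoid dendritic cells. Thinned cells with at least 2 members made up 31.0% and 33.4% of CD8 T, 27.5% and 37.2% of CD4 T, 12.6% and 20.5% of B and 26.0% and 34.0% of dendritic cells. Of the members past 1.5-fold upward between ages, a 2-fold limit left 1 of 5 in B cells and 0 of 3 in CD4 T cells. It left 0 of 2 in dendritic cells and 1 of 2 in plasmacytoid dendritic cells, with 0 lower in dendritic cells. The members tested in these classes were 9, 10, 9 and 3. With no filter on low counts, 2 members were lower in dendritic cells, 2 higher in macrophages, and 4 higher and 5 lower in plasmacytoid dendritic cells. Shares of all genes are not given for these settings, so these counts cannot be set against them.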
